A study of Mus musculus with 6 samples.

Results

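The genes Irx1, Irx2, Irx3, Irx5, Tfap2a, Tfap2b and Muc15 were followed through nuclei of subcutaneous (SAT) and visceral (VAT) white adipose tissue of the mouse. These 7 genes, of 56980 listed, were found by their symbols. They were selected on their counts in epithelial against other nuclei and in SAT against VAT, so depot and cell class are described here without a test. The age of the mice is not named in that rule and was tested, but the genes were proposed with results of these data known, and whether their values by age played a part is not known. Single-nucleus RNA sequencing had been applied to 6 libraries from female C57BL/6J mice, with no other allele and no treatment named in the labels. There were 2 libraries of inguinal SAT from mice of 2 months, 2 of inguinal SAT from mice of 24 months and 2 of gonadal VAT from mice of 24 months. The older age is that of the labels, from which the study's own text differs slightly. The label of every library reads adipocytes, but whole tissue had been dissociated, and the nuclei fell into many classes.

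Iroquois genes (Irx) encode homeobox transcription factors that lie in clusters and pattern many embryonic tissues. AP-2 genes (Tfap2) encode transcription factors of neural crest and surface ectoderm, the layer that also gives rise to the mammary gland. Muc15 encodes a membrane-bound mucin known from milk fat globule membranes. In female mice the mammary ducts grow through the inguinal fat pad, whereas the gonadal fat pad lies against ovary and oviduct. Mammary epithelium holds hormone-sensing luminal cells, which carry oestrogen and progesterone receptors, secretory luminal cells, from which milk-producing cells arise, and contractile basal cells.

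Coordinates of the genes are given on GRCm39. Irx1 (ENSMUSG00000060969, chromosome 13, 72106040 to 72111848, minus strand) and Irx2 (ENSMUSG00000001504, chromosome 13, 72776906 to 72782317, plus strand) are neighbours 665 kb apart. Irx3 (ENSMUSG00000031734, chromosome 8, 92525153 to 92528695, minus strand) and Irx5 (ENSMUSG00000031737, chromosome 8, 93084253 to 93102914, plus strand) are 556 kb apart. Tfap2a (ENSMUSG00000021359) lies on chromosome 13 at 40868778 to 40891852, minus strand, and Tfap2b (ENSMUSG00000025927) on chromosome 1 at 19279138 to 19309069, plus strand. Muc15 (ENSMUSG00000050808, chromosome 2, 110551685 to 110569872, plus strand) lies within the span of Ano3, a membrane protein gene on the opposite strand. All 7 are protein coding. The sources used here do not say whether reads were counted by strand, so reads of a gene and of its antisense partner cannot be told apart. In epithelial nuclei of SAT the UMIs (unique molecular identifiers, each standing for 1 captured RNA molecule) of overlapping genes numbered 45 for Ano3 against 1359 for Muc15 and 87 for Irx3os against 732 for Irx3. Crnde, which overlaps the start of Irx5, had 286 UMIs against 650 for Irx5. The noncoding genes Gm20554, over Irx2, and Gm26688, over Tfap2a, had 120 and 52 UMIs against 2835 and 910, and Gm71158, over Tfap2b, had no value.

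The promoters of Irx2 and Tfap2b are shown because both genes had most of their SAT UMIs in mammary nuclei and because AP-2 proteins bind the palindrome GCCNNNGGC, searched here on both strands. The sequences are RefSeq's, run from 250 bases before to 50 bases after the start of the gene, and carry coordinates of GRCm38.p6, chr13:72628570-72628869 for Irx2 and chr1:19211804-19212103 for Tfap2b, both on the plus strand. Capitals mark the motif.
Irx2: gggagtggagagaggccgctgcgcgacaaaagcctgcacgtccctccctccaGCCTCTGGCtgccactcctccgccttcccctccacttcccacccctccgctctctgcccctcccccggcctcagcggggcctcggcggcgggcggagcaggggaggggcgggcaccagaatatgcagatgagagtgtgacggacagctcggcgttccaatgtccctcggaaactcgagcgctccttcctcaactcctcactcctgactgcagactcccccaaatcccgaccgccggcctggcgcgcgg
Tfap2b: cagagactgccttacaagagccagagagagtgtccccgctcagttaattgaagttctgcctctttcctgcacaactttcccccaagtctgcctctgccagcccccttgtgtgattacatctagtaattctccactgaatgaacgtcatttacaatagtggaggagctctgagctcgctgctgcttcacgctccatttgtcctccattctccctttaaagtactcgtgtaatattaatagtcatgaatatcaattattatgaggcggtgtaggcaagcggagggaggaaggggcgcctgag
The Irx2 window held 1 match to the motif and the Tfap2b window 0, and 16.6% of 32851 promoters of the same length held at least 1. A match is no evidence of binding. The Irx2 window was 69.0% GC with 25 CpG dinucleotides, against 48.3% and 8 for Tfap2b and medians of 52.7% and 7 over all promoters. The windows of Irx3 and of the 2 listed starts of Tfap2a held 0 matches. Irx1, Irx5 and Muc15 had no entry among the promoters and were not searched.

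The libraries held 8061862 to 16226690 UMIs, and 27074 nuclei with 2490 to 5776 per library passed the filters. Epithelial nuclei, named from 11 marker genes and 3 mammary marker lists of which no member was part, numbered 483 and 409 in SAT at 2 months (replicates 1 and 2), and 401 and 603 in SAT at 24 months. In VAT no cluster was given this name among 4434 and 5070 nuclei, which is an outcome of the naming and no limit on epithelium there: the oviduct secretory cluster also scored on the epithelial markers, and a cluster of 122 nuclei led by Kctd14, Rmst and Padi1 was left unnamed because its epithelial and mesothelial scores (2.9 and 2.91) were close. The second VAT library stood apart: it held 437 oviduct secretory, 199 multiciliated and 506 steroidogenic ovarian nuclei and only 219 adipocytes, against 3, 3, 78 and 2861 in the first. A VAT mean would pool unlike libraries, and none is given. Adipocytes were a minority in SAT, with 517 to 2148 nuclei per library. Pairs of libraries shared 29 to 61 barcodes, at most 0.769% of the smaller library.

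Irx2, Tfap2b and Muc15 were counted in SAT and almost absent from VAT. Over all nuclei of a library, Irx2 was at 98.3 and 64.3 CPM (UMIs of the gene scaled to a common total per library) in the younger SAT libraries. The older SAT libraries had 121 and 84.9 CPM, and VAT had 0.280 and 0.392 CPM, where Irx2 was counted 3 and 4 times. Tfap2b was at 55.8 and 32.2 CPM, at 88.7 and 76.7 CPM, and at 0.653 and 0.784 CPM in the same order. Muc15 was at 22.1 and 19.2 CPM, at 77.9 and 60.7 CPM, and at 0.373 and 0.490 CPM. For these 3 genes the SAT and VAT libraries lay far apart, and Irx1 had the same pattern with 19.8 to 50.9 CPM in SAT and 2 UMIs in each VAT library. Tfap2a ranged from 20.8 to 40.3 CPM in SAT, and its VAT libraries had 0.467 and 2.74 CPM. For Irx5 the SAT range was 14.4 to 31.9 CPM and the VAT values were 1.31 and 12.2 CPM. Irx3 broke the pattern, since its SAT range of 17.6 to 34.8 CPM lay between VAT values of 8.31 and 85.9 CPM. In whole libraries, fewer cells of a type and less RNA per cell cannot be told apart.

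Within SAT most UMIs of every member lay in epithelial nuclei, which were 7.08% to 16.1% of the nuclei. For Irx2 the share of UMIs in epithelial nuclei was 88.4% (exact 95% interval 86.2% to 90.4%) and 82.3% (79.1% to 85.1%) in the younger libraries. It was 93.6% (91.4% to 95.4%) and 86.5% (84.2% to 88.5%) in the older, a mean over all of 87.7% ± 4.70 (SD, n = 4). The mean share was 91.8% ± 3.17 for Tfap2b and 88.6% ± 3.92 for Muc15. It was 84.6% ± 5.50 for Irx1, 82.6% ± 7.38 for Irx5 and 85.7% ± 6.41 for Tfap2a. Irx3 varied most, from 59.1% to 89.4% (mean 81.3% ± 14.8), and its lowest share was in SAT at 24 months replicate 2. Intervals here cover counting error only. Epithelial clusters with immune or adipocyte genes in the lead (145 nuclei) were kept out of the class, and with them the mean share of Irx2 was 90.7%.

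**Figure D1:**
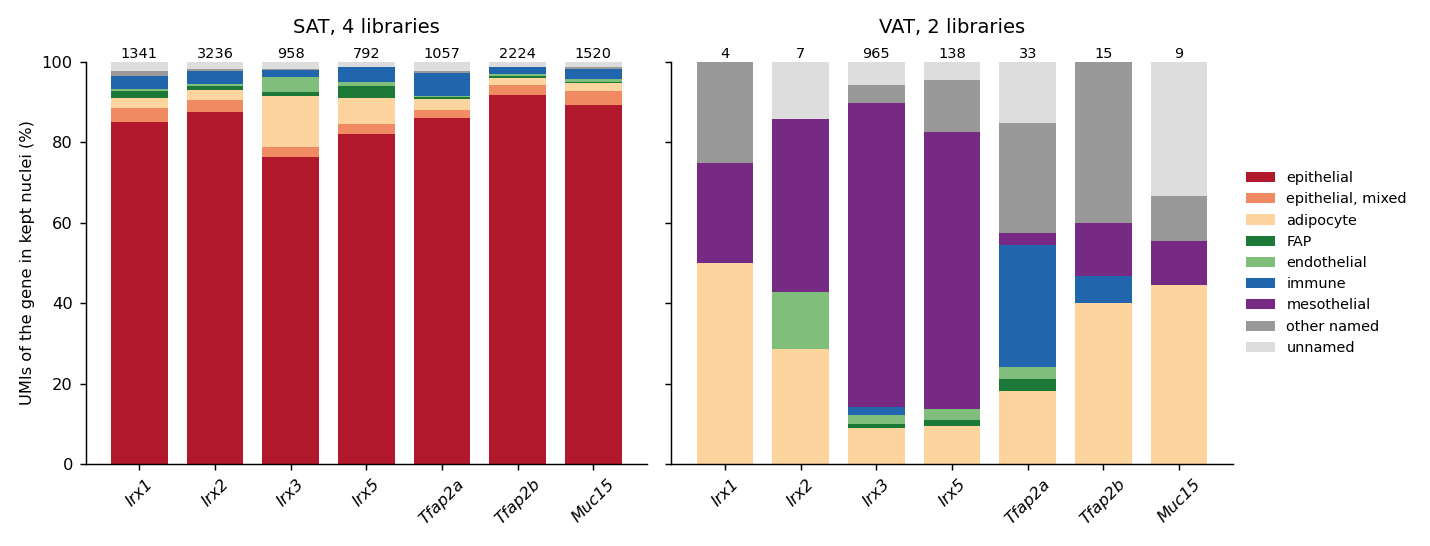
Share of each gene's UMIs by class of nuclei, as stacked bars that add up to 100% of the UMIs in kept nuclei, for the 4 SAT libraries (left) and the 2 VAT libraries (right), with the number of UMIs above each bar. Epithelial nuclei hold most of every SAT bar, and in VAT only Irx3 (965 UMIs, 876 of them in replicate 2) and Irx5 (138 UMIs, 124 of them in replicate 2) have more than 33 UMIs.

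Outside the epithelium the levels were low but not 0. In SAT adipocytes Irx2 was at 13.9 and 3.33 CPM at 2 months and at 6.22 and 7.94 CPM at 24 months, against 408 to 476 CPM in epithelial nuclei. Tfap2b was at 2.07 to 6.66 CPM and Muc15 at 1.38 to 3.97 CPM in the same adipocytes. Immune nuclei were at 2.05 to 12.5 CPM for Tfap2b and 1.49 to 14.6 CPM for Muc15, with the highest value of each in SAT at 24 months replicate 2. RNA released from broken cells can put UMIs of an abundant gene into other nuclei, and the keratin and junction genes that define epithelium were read beside the members for this reason. The median level in adipocytes, as a percentage of the level in epithelial nuclei of the same library, was 2.70% and 2.71% at 2 months and 1.13% and 1.75% at 24 months over the 7 members. Over the 11 epithelial markers it was 1.86% and 2.48%, and 0.909% and 1.36%. The median of the members lay above that of the epithelial markers in all 4 libraries, by less than 1 percentage point, and no expression in adipocytes is read from these counts. Irx3 stood out most in SAT at 24 months replicate 2, with 19.0 CPM from 105 UMIs in adipocytes, 15.1% of its epithelial level there. In the other 3 SAT libraries Irx3 was at 2.14 to 5.53 CPM. In replicate 1 of that age Irx3 (5.11%, 8 UMIs) and Tfap2a (1.80%, 4 UMIs) lay above every marker, which reached at most 1.61%. Irx5 was at 6.74% (10 UMIs) in SAT at 2 months replicate 1 and at 5.17% (35 UMIs) in SAT at 24 months replicate 2. The markers reached at most 4.82% and 2.56% there. In SAT at 2 months replicate 2 no member passed 5.33%, and the highest marker was at 10.1%.

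FAPs (fibro-adipogenic progenitors, the fibroblasts of fat) had a few UMIs of the Iroquois genes in SAT. In SAT FAPs Irx2 was at 33.6 and 33.5 CPM at 2 months and at 22.8 and 8.22 CPM at 24 months, from 2 to 13 UMIs per library. Irx1 was at 15.5 and 33.5 CPM, and at 0 and 5.48 CPM. Irx5 was at 12.9 and 33.5 CPM, and at 34.2 and 8.22 CPM. In VAT FAPs both Irx1 and Irx2 had 0 UMIs in 588 and in 323 nuclei, with exact upper limits of 3.98 and 7.18 CPM, and Irx5 had 1 UMI in each library. As a percentage of the epithelial level, FAPs of SAT reached 28.3% for Irx1, 40.2% for Irx5, 15.3% for Irx3 (7 UMIs) and 8.21% for Irx2 in their highest library, whereas Tfap2b did not pass 3.05% and Muc15 not 5.54%. The values of Irx1 and Irx5 come from SAT at 2 months replicate 2, with 13 UMIs each, where the epithelial markers had a median of 1.88% and reached at most 13.7%. In SAT at 24 months replicate 1 the marker Grhl2 reached 22.5% on 4 UMIs.

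**Figure D2:**
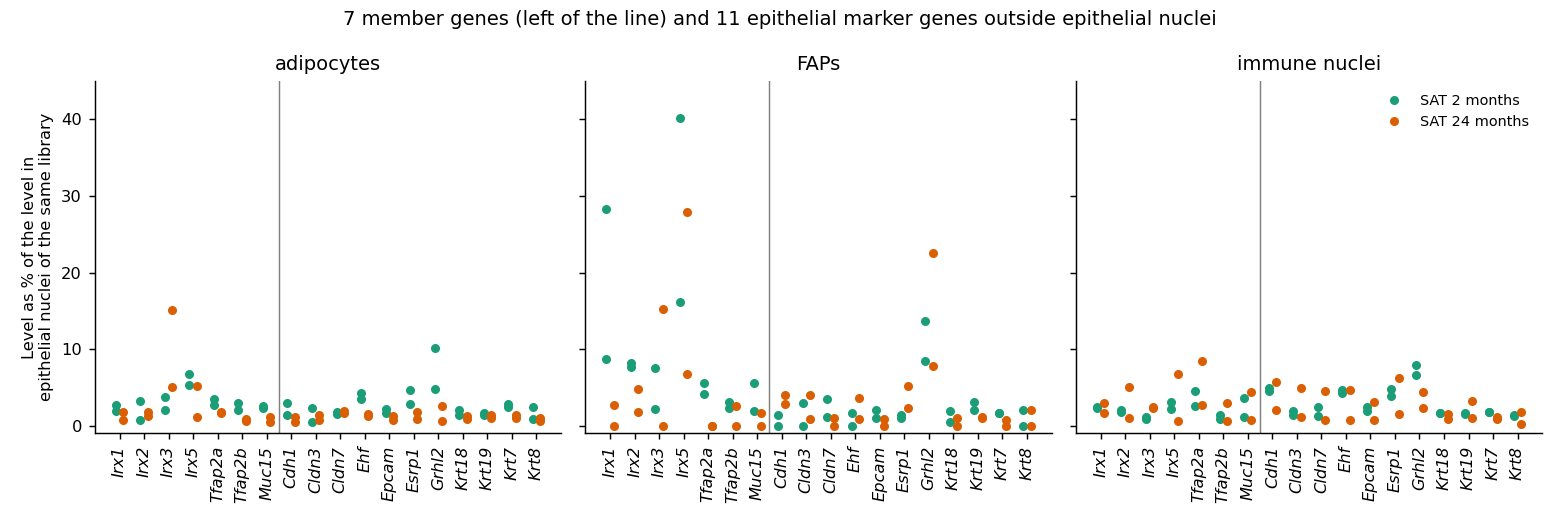
Level of the 7 members (left of the line) and of 11 epithelial marker genes in adipocytes, FAPs and immune nuclei, as a percentage of the level in epithelial nuclei of the same SAT library, with 1 point per library. Most points of both gene groups lie near the bottom of the axis, and the members that exceed 20% are Irx1 and Irx5 in FAPs.

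**Figure D3:**
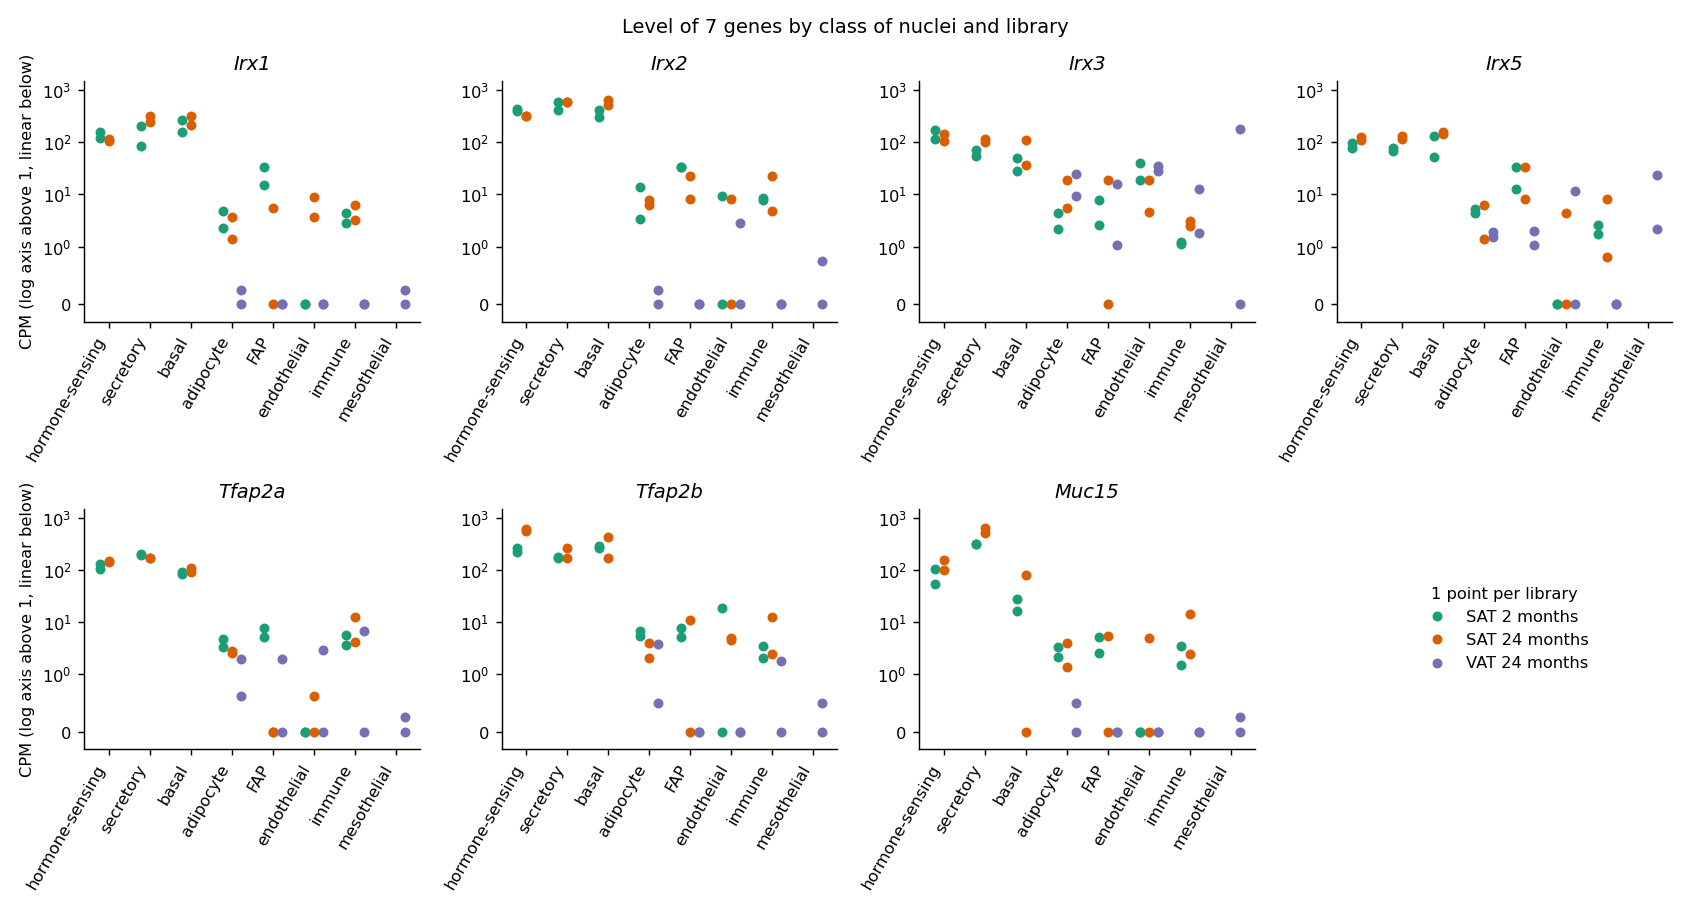
Level of each member in CPM (log axis above 1, linear below) by class of nuclei, with 1 point per library, coloured by depot and age, for classes with at least 20 nuclei. In SAT the 3 mammary subclasses lie above the other classes plotted for every member, except for Muc15 and Irx3 in basal nuclei, and in VAT the only level above 100 CPM is that of Irx3 in mesothelial nuclei.

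Nuclei of the 3 mammary subclasses were told apart by their own markers. Pgr, the progesterone receptor gene, was at 638 to 1834 CPM in hormone-sensing nuclei and at most at 107 CPM in the others. Csn3, a milk casein gene, was at 1184 to 2865 CPM in secretory nuclei and at most at 625 CPM elsewhere. Elf5 (366 to 541 against 73.5 to 128 CPM) and Kit (1637 to 2300 against 391 to 624 CPM) also set secretory apart from hormone-sensing nuclei. For other secretory markers these ranges overlapped, as for Trf (262 to 1920 against 141 to 296 CPM) and Wfdc18 (660 to 2013 against 310 to 743 CPM). Trp63, a transcription factor of basal epithelium, was at 588 to 989 CPM in basal nuclei and at most at 58.4 CPM in the others. The SAT libraries held 105 to 243 hormone-sensing, 146 to 310 secretory and 56 to 122 basal nuclei, with median depths of 3526 to 4282, 1536 to 2117 and 1268 to 1848 UMIs per nucleus.

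Irx2 was present in all 3 subclasses. In hormone-sensing nuclei it was at 405 and 440 CPM at 2 months and at 320 and 327 CPM at 24 months. In secretory nuclei it was at 602 and 420 CPM, and at 588 and 589 CPM, and in basal nuclei at 417 and 310 CPM, and at 635 and 516 CPM. Over all 4 libraries the means were 373 ± 59.1 CPM for hormone-sensing, 469 ± 139 CPM for basal and 550 ± 86.6 CPM for secretory nuclei, so neighbours in this order differed by less than 1 SD of the more variable class. When every nucleus was thinned to 1000 UMIs, 18.1% to 27.6% of hormone-sensing, 28.2% to 40.3% of secretory and 20.5% to 37.5% of basal nuclei had an Irx2 UMI (unthinned 48.6% to 59.7%, 41.6% to 56.5% and 31.1% to 47.9%). In adipocytes the thinned share was 0.296% to 1.33% (unthinned 0.580% to 2.66%, median depths of 1575 to 1980 UMIs).

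Its neighbour Irx1 had a like distribution, with means over 4 libraries of 125 ± 24.9 CPM in hormone-sensing, 214 ± 96.8 CPM in secretory and 240 ± 69.3 CPM in basal nuclei. Irx3 and Irx5, the pair on chromosome 8, did not resemble each other in basal nuclei. Irx3 was at 135 ± 30.4 CPM in hormone-sensing, 86.0 ± 27.9 CPM in secretory and 57.2 ± 38.5 CPM in basal nuclei, and its antisense neighbour Irx3os had 0 UMIs in basal nuclei of all 4 libraries. Irx5 was level across the subclasses, at 76.2 to 128 CPM, 67.6 to 131 CPM and 52.4 to 159 CPM over the 4 libraries.

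Of the AP-2 pair, Tfap2a was at 131 ± 19.1 CPM in hormone-sensing, 185 ± 18.9 CPM in secretory nuclei, and at 84.6 to 110 CPM in basal nuclei. Tfap2b was at 418 ± 201, 196 ± 46.0 and 288 ± 108 CPM, and the wide spread in hormone-sensing nuclei lay between the ages, with 267 and 226 CPM at 2 months against 620 and 561 CPM at 24 months. Secretory nuclei were at 174 and 173 CPM and at 171 and 264 CPM, and basal nuclei at 287 and 262 CPM and at 171 and 431 CPM. The ages did not overlap in hormone-sensing nuclei and overlapped in the other subclasses. Irx2, not called with age, did not overlap in hormone-sensing nuclei either, and the share of all genes without overlap was not counted.

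Muc15 was highest in secretory nuclei, at 315 and 310 CPM at 2 months and at 523 and 636 CPM at 24 months. Hormone-sensing nuclei were at 53.0 and 105 CPM, and at 97.9 and 159 CPM. Basal nuclei were at 28.2 and 16.1 CPM, and at 0 and 79.3 CPM, from at most 14 UMIs per library. The secretory libraries all lay above those of the other subclasses. At 1000 UMIs per nucleus, 20.5% to 40.0% of secretory, 2.86% to 7.53% of hormone-sensing and 0% to 5.32% of basal nuclei had a Muc15 UMI (unthinned 28.9% to 55.2%, 18.1% to 27.6% and 0% to 8.51%), against 0.148% to 0.580% of adipocytes (unthinned 0.296% to 1.02%).

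**Figure D4:**
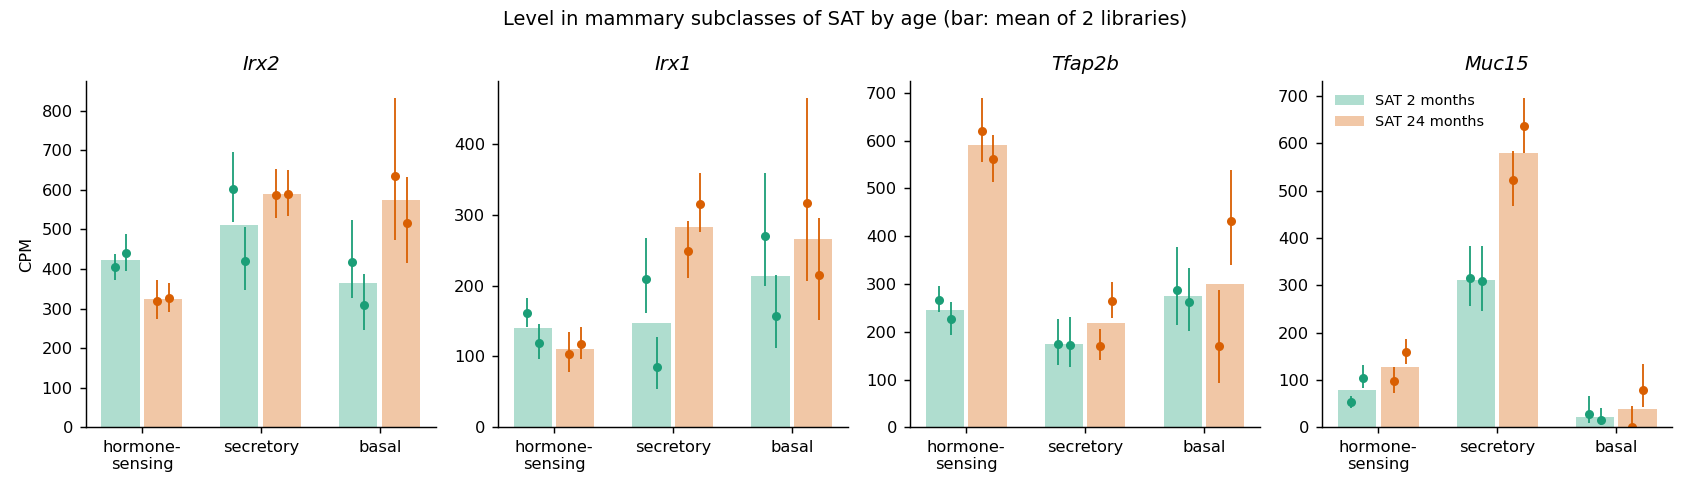
CPM of Irx2, Irx1, Tfap2b and Muc15 in hormone-sensing, secretory and basal nuclei of SAT at 2 and 24 months, with bars for the mean of 2 libraries and points for each library with its exact 95% Poisson interval. Tfap2b in hormone-sensing nuclei and Muc15 in secretory nuclei are the clearest separations, with both libraries at 24 months above both at 2 months.

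The first question tested was how the members differed with age in epithelial nuclei of SAT. Muc15 and Tfap2b rose with age, and the 5 others did not pass the test. Muc15 was at 93.3 and 130 CPM at 2 months and at 305 and 331 CPM at 24 months, a mean of 111 ± 25.7 against 318 ± 18.5 CPM (SD, n = 2 each). The groups were far apart, a 2.89-fold rise (edgeR quasi-likelihood test with Benjamini-Hochberg adjustment, adjusted p = 0.00150, with 1.53 ± 0.21 SE as the log2 fold change). Tfap2b was at 254 and 220 CPM, and at 358 and 428 CPM, which is a 1.66-fold rise in means of 237 ± 23.6 and 393 ± 49.2 CPM (adjusted p = 0.0441, 0.73 ± 0.19 SE on the log2 scale). So 2 of 7 members were called higher and 0 lower, where 6.30% of 12494 genes tested were called and 3.01% were higher at 24 months. The median log2 fold change was 0.43 over the members and 0.01 over all genes tested.

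The Tfap2b call was a narrow one. It was lost without SAT at 24 months replicate 2 (adjusted p = 0.0886), without SAT at 2 months replicate 1 (0.0774) and without SAT at 2 months replicate 2 (0.272), and also when every barcode with at least 500 UMIs was used (0.0556). Muc15 was called in the 12 alternative fits that changed the counts, libraries or method in these nuclei, with log2 fold changes of 1.32 to 1.77, while 4 others left this fit as it was. The p-values rest on 2 libraries per age and measure only the spread between them, which may be technical. Median mitochondrial shares of kept SAT nuclei were 1.72% and 0.918% at 2 months and 3.49% and 2.91% at 24 months. Their part in the age results was not tested.

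Irx5 was at 79.5 and 83.3 CPM at 2 months and at 123 and 122 CPM at 24 months in epithelial nuclei, without overlap, but missed the threshold (log2 fold change 0.60, SE 0.19, adjusted p = 0.101). Irx1 was at 179 and 118 CPM and at 194 and 207 CPM (0.43, SE 0.22, adjusted p = 0.312). For Irx2 the levels of 436 and 408 CPM and of 476 and 448 CPM gave 0.14 (adjusted p = 0.762). Its approximate interval, 2 SE to either side, ran from -0.23 to 0.51. Tfap2a (0.21, interval -0.17 to 0.58) and Irx3 (0.09, interval -0.31 to 0.48) gave no call either.

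The makeup of the epithelial class was read beside these values, without a test. Secretory nuclei were 30.2% and 36.4% of epithelial nuclei at 2 months and 58.4% and 51.4% at 24 months. Hormone-sensing nuclei were 50.3% and 32.8%, and 26.2% and 30.8%, and basal nuclei 18.8% and 29.8%, and 14.0% and 15.6%. Muc15 is highest in the secretory subclass, whose share was larger at 24 months, and 7 of the 11 secretory markers tested were called higher over the whole class, where 3.01% of all genes were higher (Cd14, Wfdc18 and Trf with log2 fold changes of 1.69, 1.55 and 1.87). The part of this makeup in the Muc15 result is not separated by the fit over the whole class, and the age contrast was also fitted within each subclass, an addition made after the data had been seen.

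Within hormone-sensing nuclei Tfap2b rose 2.32-fold, with means of 247 ± 29.2 and 590 ± 41.6 CPM over 2 libraries each (edgeR, adjusted p = 0.00501, 1.21 ± 0.23 SE on the log2 scale). It was the 1 member called of 7, where 4.48% of 10471 genes tested were called and 1.93% were higher at 24 months. Without SAT at 2 months replicate 2 the adjusted p was 0.0605, with a log2 fold change of 1.11. These nuclei came from 3 sub-clusters, and in the largest, led by Syn2, Cdcp3 and Gpx3, Tfap2b was at 268 and 233 CPM at 2 months and at 838 and 752 CPM at 24 months. In the sub-cluster led by Dmbt1, Tph1 and Fgb it was at 248 and 213 CPM, and at 439 and 394 CPM. The third, led by Dscam, Fgb and Upk3a, had too few nuclei in 1 library at 2 months and was at 392 CPM in the other, and at 643 and 468 CPM at 24 months. Among the subclass markers tested in these nuclei, 3 of 9 hormone-sensing markers rose and 2 fell, 2 of 9 secretory markers rose and 1 of 8 basal markers fell, and their part in the Tfap2b result was not tested. The older libraries lay above the younger in each sub-cluster with a value, and the largest sub-cluster made up 69.1% and 70.9% of the subclass at 2 months and 53.3% and 61.3% at 24 months.

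Muc15 in hormone-sensing nuclei (log2 fold change 0.72, SE 0.32, adjusted p = 0.264) was not called, but was called without SAT at 24 months replicate 1 (1.00, adjusted p = 0.0321) and without SAT at 2 months replicate 2 (1.27, adjusted p = 0.0273). Without SAT at 24 months replicate 2 the estimate was 0.32 (adjusted p = 0.724) and without SAT at 2 months replicate 1 it was 0.24 (adjusted p = 0.859). Irx2 and Irx1 had negative estimates there, of -0.43 (SE 0.23, adjusted p = 0.378) and -0.39 (SE 0.25, adjusted p = 0.487).

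Within secretory nuclei Muc15 rose 1.89-fold, with means of 313 ± 3.99 and 579 ± 79.8 CPM over 2 libraries each (edgeR, adjusted p = 0.0432, 0.92 ± 0.24 SE on the log2 scale). This was again 1 of 7 members, where 3.01% of 8652 genes tested were called and 1.43% were higher at 24 months. The call was lost with DESeq2 (adjusted p = 0.171), with library size as the scale (0.0561), with every barcode of at least 500 UMIs (0.0625), and without SAT at 24 months replicate 2 (0.204), SAT at 2 months replicate 1 (0.0692) or SAT at 2 months replicate 2 (0.146). The estimate itself stayed between 0.77 and 1.07. Both secretory sub-clusters had the same order of the ages. In the sub-cluster led by Dlg2, Kcnd2 and Chst9 Muc15 was at 270 and 266 CPM and at 391 and 490 CPM, and in that led by Trf, Csn3 and Btn1a1 at 363 and 358 CPM and at 604 and 757 CPM. The first made up 50.7% and 53.7% of the subclass at 2 months and 47.4% and 52.3% at 24 months. In secretory nuclei 3 of their 11 own markers rose, and 0 of 6 hormone-sensing and 0 of 3 basal markers were called. The part of sub-clusters and markers in the Muc15 result was not tested.

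Irx1 in secretory nuclei was at 209 and 84.8 CPM at 2 months and at 249 and 315 CPM at 24 months (log2 fold change 0.95, SE 0.32, adjusted p = 0.130). The younger libraries differed from each other by more than the older, and without SAT at 2 months replicate 1 the estimate was 1.76 (adjusted p = 0.000547), and without SAT at 24 months replicate 1 it was 1.12 (0.0174). Without SAT at 24 months replicate 2 it was 0.77 (0.289), and without SAT at 2 months replicate 2 it was 0.46 (0.697). With all libraries it was called without the filter on low counts (1.08, adjusted p = 0.00990) and with the replicate number as a block (1.01, 0.0217), but not by DESeq2 (0.95, 0.577). Irx5 (0.79, SE 0.31, adjusted p = 0.217) and Irx3 (0.80, SE 0.33, adjusted p = 0.251) had estimates of similar size. In basal nuclei 5 members had enough counts to be tested and 0 were called by edgeR, with 1 at an unadjusted p under 0.05 (Irx2, 0.68, SE 0.30, adjusted p = 0.390) and 0 called by DESeq2, where 0.929% of 4842 genes tested were called.

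**Figure D5:**
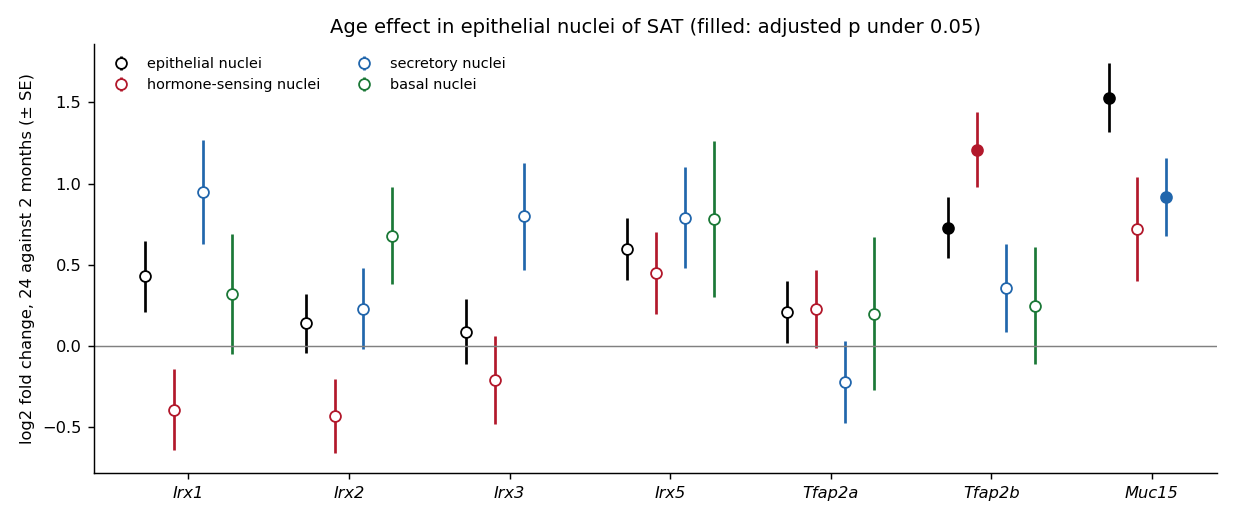
Log2 fold change at 24 against 2 months with its standard error for each member in epithelial nuclei and in the 3 mammary subclasses of SAT, with filled points where the adjusted p is under 0.05. Filled points are those of Tfap2b in epithelial and hormone-sensing nuclei and of Muc15 in epithelial and secretory nuclei, and Irx3 and Muc15 had too few counts for a test in basal nuclei.

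Whether the age effects differed between subclasses was tested in 1 fit over the subclasses, also an addition after the data had been seen. By edgeR 0 members were called in the 3 pairs of subclasses, with 3, 3 and 0 members at an unadjusted p under 0.05 and no other tool run, where 0.535%, 0.432% and 0.413% of 10655 genes tested were called for hormone-sensing against secretory, hormone-sensing against basal and secretory against basal nuclei. For Tfap2b the effect in hormone-sensing minus that in secretory nuclei was 0.92 on the log2 scale (SE 0.37, unadjusted p = 0.0150, adjusted p = 0.373), with 0.52 without SAT at 24 months replicate 1 and 1.27 without SAT at 24 months replicate 2. Against basal nuclei the difference was 1.10 (SE 0.39, adjusted p = 0.280), and leaving out the same libraries gave 0.52 and 2.06. For Irx1 the effect in hormone-sensing nuclei was lower than in secretory nuclei by a difference of -1.37 (SE 0.38, adjusted p = 0.0861). Leaving out SAT at 2 months replicate 1 gave -1.95 (adjusted p = 0.0124), and leaving out any other SAT library gave -1.45 to -1.07 with adjusted p of 0.370, 0.405 and 0.677. That of Muc15 in hormone-sensing minus secretory nuclei was -0.20 (SE 0.39, adjusted p = 0.944), and its sign turned without SAT at 24 months replicate 1 (0.00093) and without SAT at 2 months replicate 2 (0.26).

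Over all SAT nuclei 0 of 7 members were called with age by edgeR, where 0% of 21729 genes tested were called, with 1794 of all genes at an unadjusted p under 0.05 and 292 called by DESeq2. Muc15 (log2 fold change 1.94, SE 0.28, unadjusted p = 0.000410, adjusted p = 0.601) and Tfap2b (1.11, SE 0.34, unadjusted p = 0.0167, adjusted p = 0.601) were the members under 0.05 before adjustment. Muc15 was called by DESeq2 (adjusted p = 0.00188) and without the filter on low counts (0.0162). Epithelial nuclei made up 8.80% ± 2.43 of SAT nuclei at 2 months and 14.5% ± 2.33 at 24 months (n = 2 each), 5.66 points apart (two-sided exact permutation p = 0.33, which is as low as 2 against 2 libraries can go).

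Only Irx2 and Irx3 had enough counts for a test in adipocytes, and 0 of them were called by edgeR or by DESeq2, where 9.71% of 13012 genes tested were called. Irx3 (log2 fold change 2.23, SE 0.79, unadjusted p = 0.0179, adjusted p = 0.105) rested on 105 UMIs of SAT at 24 months replicate 2, and was called without batch correction (adjusted p = 0.0440) and without the filter on low counts (0.00754). Without that library its estimate was 1.07. In FAPs Irx2 (-1.41, SE 1.06, adjusted p = 0.677) and Irx5 (-0.52, SE 1.16, adjusted p = 0.910) were tested and 0 were called, where 0% of 8544 genes tested were called by edgeR, with 886 at an unadjusted p under 0.05 and 18 called by DESeq2. The FAP intervals, from -3.52 to 0.70 for Irx2, do not tell a fall of several fold from no difference at this depth.

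Irx3 was the member with a site of its own in VAT. In mesothelial nuclei, which line the body cavity and its organs, it was at 184 CPM (728 UMIs) in VAT replicate 2 and had 0 UMIs in 247 nuclei of replicate 1. The signal came from a cluster led by Upk1b, Kctd14 and Plxna4, with Lgr5 among its 10 leading genes, which held 1388 nuclei of replicate 2 with 717 Irx3 UMIs (204 CPM, exact 95% interval 189 to 220 CPM). The 58 nuclei of that cluster in replicate 1 had 0 UMIs, which allows up to 39.8 CPM. In another mesothelial cluster, led by Il1rapl1, Nxph1 and Bicd1, Irx3 had 0 UMIs in 167 nuclei of replicate 1 and in 153 of replicate 2, with upper limits of at most 11.2 CPM. Mesothelial nuclei were therefore not alike in Irx3, and 1388 of the 1446 nuclei of the cluster that had it came from the library with ovary and oviduct nuclei, whose part in this result was not tested. Irx5 was at 25.9 CPM (91 UMIs) in the same cluster of replicate 2 and at 32.5 CPM (16 UMIs) in multiciliated nuclei of that library, whereas Irx1, Irx2, Tfap2a, Tfap2b and Muc15 had 1 or 2 UMIs each in the 1388 nuclei.

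In lymph node stroma or high endothelium Irx2 had 1 UMI in each of 3 SAT libraries (3.76, 3.78 and 10.2 CPM) and 8 UMIs (168 CPM) in the 30 nuclei of SAT at 24 months replicate 2. Irx3 UMIs in endothelial nuclei were few, with 10 and 12 in VAT (27.8 and 34.7 CPM). In SAT they numbered 2 and 3 at 2 months (18.7 and 40.1 CPM) and 1 and 30 at 24 months (4.51 and 18.8 CPM). As a percentage of the epithelial level the SAT values were 18.1% and 33.7%, and 4.16% and 15%, while the epithelial markers reached at most 8.12% and 8.69%, and 4.46% and 2.04%, in the same libraries. No expression in endothelium is read from the libraries with 1 to 3 UMIs. VAT adipocytes were at 9.29 CPM (74 UMIs) and 25.1 CPM (13 UMIs). The higher VAT value in each class is from replicate 2, whose mesothelial nuclei held 728 Irx3 UMIs, and the part of RNA from those nuclei was not tested. In oviduct secretory nuclei, an epithelium of the other depot, Irx2 and Muc15 had 0 UMIs and Tfap2b 1 UMI in 437 nuclei, and Tfap2a had 4.

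Genes related to the members were read from lists, beside the 6.30% of all genes called in epithelial, 4.48% in hormone-sensing and 3.01% in secretory nuclei and 9.71% in adipocytes. Of 6 AP-2 partners, 1 was called higher with age in epithelial nuclei, Cited2 (log2 fold change 1.36, SE 0.25, edgeR adjusted p = 0.00882), a transcriptional co-activator, and the median of the list was 0.67. In hormone-sensing nuclei, where Tfap2b rose, the partner called of 5 tested was Cited1 (1.43, SE 0.28, adjusted p = 0.00526), which is also a marker of that subclass. Of the 5 other transmembrane mucins tested in epithelial nuclei, Muc1 (1.32, adjusted p = 0.00731) and Muc20 (1.73, adjusted p = 0.0199) rose and Muc13 (-1.67, adjusted p = 0.0248) fell, with a list median of 1.32. Among the 3 mucins tested in secretory nuclei 0 were called (Muc1 at 0.69, adjusted p = 0.337). Of the 3 tested in hormone-sensing nuclei, 1 was called lower and 0 higher. The other AP-2 gene with enough counts, Tfap2c, was at -0.02 (adjusted p = 0.981) and the other Iroquois gene, Irx4, at -1.05 (adjusted p = 0.270) in epithelial nuclei. Of 16 mammary transcription factors 2 rose and 2 fell, among them Sox9 (1.42, adjusted p = 0.00150), Ehf (1.16, adjusted p = 0.00527) and Pgr (-1.73, adjusted p = 0.00326). None of the 7 genes beside the members that were tested was called, and Ano3, which spans Muc15, was at -1.14 (SE 0.59, adjusted p = 0.328). Of the thermogenic genes linked to Irx3 and Irx5, 4 were tested in adipocytes and 0 were called.

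Genes with a pattern like that of a member were ranked by Pearson's r of log2(CPM + 10) over 52 sums of nuclei by class and library, among 15441 genes. These points share libraries and depth, and r is a description. Closest to Irx2 were Irx1 (r = 0.956), Tfap2a (0.935) and Sox10 (0.931). Closest to Tfap2b were C130021I20Rik (0.961), Tfap2a (0.95) and Lmx1b (0.930), and closest to Muc15 were Csn3 (0.962), Slc5a7 (0.948) and Foxi1 (0.924). Irx3 had the lowest r with Irx2 of all members (0.691).

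UMIs of more than 1 member were also found in the same nuclei. At 1000 UMIs per nucleus, 50.8% to 81.3% of mammary nuclei had a UMI of at least 1 member, by subclass and library, and 14.8% to 45.2% had UMIs of at least 2. In adipocytes these shares were 1.78% to 3.99% and 0% to 0.233%, and in immune nuclei 1.90% to 4.61% and 0% to 0.738%. Other classes were not counted in this way, and since the members were selected on their epithelial counts these shares are a description. Whether members met in a nucleus more often than their separate detection would give was not tested.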

How the data were processed

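Nuclei of 6 mouse libraries had been captured with a Singleron GEXSCOPE kit, although the label description names 10x Genomics. The authors aligned and counted the reads with Celescope (version not given in the sources used here) against GRCm39 and deposited raw UMI counts per gene and barcode, with 6158 to 11341 barcodes per library. The study's filter was used: more than 500 genes, more than 1000 UMIs and less than 15% of UMIs from mitochondrial genes. They were clustered in scanpy 1.11.5 after correction by library with Harmony (1000 variable genes without the members, 30 components, Leiden resolution 2.0, and 1.0 for epithelial nuclei). Clusters were named by depot from marker lists, so that each class means nuclei like that type. The naming thresholds (mean log2 fold of at least 0.5, 3 markers over 2-fold, a gap of 0.3 to the next list, 25% of the highest list level) were set after the clusters had been looked at. Scrublet marked only 36 of 27074 nuclei, and whether its threshold had failed was not tested, so doublets were kept. As an added alternative the highest 5% of scores was removed.

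Counts were summed per class and library with at least 20 nuclei and fitted with edgeR 4.0.16 (quasi-likelihood test, TMM, filterByExpr, all 3 groups in 1 fit), with p-values adjusted by Benjamini-Hochberg over all genes tested and called under 0.05. The alternatives included DESeq2 1.42.0. The scripts were tested on simulated data. CPM divides UMIs by the total of the class and library, and intervals of CPM and shares are exact (Poisson for CPM, Clopper-Pearson for shares, 95%). Those of log2 fold changes are approximate and were taken from the SE. Levels are not per length and are not compared between genes. Coordinates come from GENCODE M39, which held 98.7% of the gene identifiers. The members and lists were chosen with earlier results of these data known. Named genes were the members, the 3 genes most like Irx2, Tfap2b and Muc15 in pattern (among those with at least 200 UMIs), and up to 3 genes of each list with the smallest p.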

Additional observations from a re-analysis of the deposited data

How the results depend on the processing

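The number of genes called moved with the filter on low counts, the tool, the libraries in the fit and the barcodes kept. Without the filter it was 953 for all nuclei, 1322 for epithelial nuclei and 152 for FAPs, and with DESeq2 it was 292 for all nuclei and 18 for FAPs. With the 4 SAT libraries alone it was 2470 for adipocytes and 47 for FAPs, with every barcode of at least 500 UMIs 780 for adipocytes, and without batch correction 121 for FAPs. Leaving out 1 library gave 741 to 1190 for epithelial nuclei and 153 to 684 for adipocytes, with the highest epithelial count without SAT at 24 months replicate 2 and the lowest adipocyte count without SAT at 2 months replicate 2. With library size as the scale, 490 of 1330 adipocyte calls were higher at 24 months, against 646 of 1264. The cause of these shifts was not tested.

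Within subclasses the counts were 469 for hormone-sensing (718 without the filter, 273 with DESeq2, 309 without SAT at 2 months replicate 2), 260 for secretory (449 without the filter, 86 with DESeq2, 435 without SAT at 2 months replicate 1, 397 without batch correction) and 45 for basal nuclei (134 without the filter, 32, without SAT at 2 months replicate 2, to 142, without SAT at 24 months replicate 1, leaving out 1 library, 26 without the highest Scrublet scores, 171 with every barcode). For the difference of age effects, leaving out 1 library gave 9 to 150 calls for hormone-sensing against secretory (57 with all), 2 to 55 for hormone-sensing against basal (46) and 6 to 54 for secretory against basal nuclei (44).

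Same-numbered libraries of the 2 ages came from different mice and share only a number. The study's text has both depots taken from 2 mice per age, so the older SAT and VAT libraries may share mice. The main fits treated them as independent. With the replicate block 1051 genes were called in epithelial nuclei, 1399 in adipocytes, 703, 415 and 147 in the subclasses in the same order, and 0 in all nuclei and FAPs. Among members the block changed the call of Irx1 in secretory nuclei (adjusted p = 0.0217).

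Among the age effects the sign turned for 13 estimates, none of them called. Leaving out 1 library gave log2 fold changes of -0.01 (without SAT at 24 months replicate 2; -0.00038 without SAT at 2 months replicate 1) to 0.19 for Irx3 in epithelial nuclei, -0.50 to 0.09 (without SAT at 2 months replicate 2) for Irx3 in hormone-sensing nuclei, and -0.01 (without SAT at 2 months replicate 2) to 0.52 for Irx2 in secretory nuclei. For Irx5 in FAPs they were -1.43 to 0.53 (without SAT at 24 months replicate 2), and in basal nuclei -0.06 (without SAT at 2 months replicate 2) to 0.75 for Irx1 and -0.62 (without SAT at 24 months replicate 2) to 0.67 for Tfap2b. In adipocytes Irx2 ranged from -0.81 to 1.31 (without SAT at 2 months replicate 1), with 0.0029 without SAT at 24 months replicate 1, and was at 0.04 without the filter, 0.06 with the block and 0.02 with every barcode. Tfap2a in basal nuclei was at -0.04 without the highest Scrublet scores.

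The shares of Irx2, Tfap2b and Muc15 UMIs in epithelial nuclei moved by less than 1 SD under every alternative run. Basal nuclei, with 56 to 122 per SAT library, and FAPs, with 60 to 234, had the lowest numbers of nuclei in a single library among the classes tested.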
